A study of Mus musculus with 18 samples.

Results

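Isoform usage, the share of a gene's reads that each of its isoforms holds, was compared among small extracellular vesicles (sEVs) released by primary mouse astrocyte, microglia and neuron cultures. Long reads of polyadenylated RNA had been counted per isoform on the PacBio platform in 3 libraries of each sEV source. The members were genes with at least 2 isoforms kept by a filter on low counts in these 9 libraries. There were 901 such genes with 2078 isoforms, out of 17714 gene labels and 114425 isoforms in the deposited table. Of these, 826 genes with 1899 isoforms had enough reads in at least 2 of the sources to be tested, that is 10 or more reads of the gene in 2 or more of the 3 libraries. The other 75 met this in fewer than 2 sources. The cells that released the sEVs were sequenced as well, in 3 libraries per cell type, and the same isoforms were read there. The labels give mouse brain as the tissue and primary culture as the material, with no strain, age, treatment or allele that sets the groups apart. They do not say whether the 3 libraries of a group came from separate cultures, so the tests measure only the spread between these libraries, which may be technical.

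A gene can make several messenger RNAs through alternative promoters, alternative exons and alternative polyadenylation sites, and cell types of the brain differ widely in these choices. Neurons in particular include exons in genes for the cytoskeleton, vesicle traffic and adhesion that other cells skip. sEVs are released by all these cells and carry RNA taken from the cytoplasm, so a read that spans a whole transcript can show which of these versions left the cell. A share does not depend on how much of the gene is present, so isoform usage is a separate measurement from gene level.

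The sEV libraries held 479397 to 667845 reads each. A tested gene had a median of 744 reads over the 9 libraries, from 113 to 812703. Summed marker genes, in RPM (reads scaled to an equal library total), were compared with the labels. Microglia markers stood at 17500 to 26700 RPM in microglia sEVs and at 193 RPM or less in the other sEVs. Neuron markers stood at 3480 to 4460 RPM in neuron sEVs and at 456 RPM or less elsewhere. Astrocyte markers reached 17200 to 30600 RPM in astrocyte sEVs but also 4550 to 6480 RPM in neuron sEVs, where 17 of 20 had reads and Aqp4, S100b and Sox9 were at 0. In microglia sEVs they summed to 4010 to 10100 RPM from 9 of 20 markers, with Aqp4 and Slc1a2 among those at 0. Most of this sum came from Apoe, with 4342, 1969 and 2207 reads in libraries of 479397, 527292 and 651943 reads. Apoe also had 33635 reads in the microglia cell libraries. Oligodendrocyte lineage markers stood at 2020 to 3320 RPM in astrocyte sEVs, with 9 of 12 read and Olig2 at 0, against 295 to 446 RPM in neuron and 22.8 to 99.7 RPM in microglia sEVs. The part of these reads in any share below was not tested. In addition, Gm42047, a predicted gene, took 6.76% of the reads of astrocyte sEV 1 and 8.94% of those of neuron sEV 1, and 1.63% or less in the other 7 libraries.

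Over the 3 sources jointly, no gene passed. By edgeR's quasi-likelihood test of each isoform against all other reads of its gene, with Benjamini-Hochberg adjustment, 0 of 826 genes (0%) had an adjusted p under 0.05. The smallest adjusted p was 0.0687. At an unadjusted p under 0.05 the edgeR test held 206 genes, 24.9% of those tested. Other tests of the same shares made calls: 87 genes by edgeR with the gene's total as an offset, 253 by DESeq2's likelihood ratio test and 31 by edgeR's diffSpliceDGE. Individual shares varied widely between libraries of 1 source. The median SD of an isoform's share within a source was 10.4 percentage points, against a median range of 21.3 points between the means of the sources.

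Taken by pairs in the same edgeR fit, microglia sEVs differed from each of the other sources, and neuron sEVs were not told apart from astrocyte sEVs. Between microglia and neuron sEVs 66 of 655 genes were called (10.1%). Between astrocyte and microglia sEVs 16 of 685 were called (2.34%), and between astrocyte and neuron sEVs 0 of 788 (0%). The microglia libraries enter both pairs that had calls. At an unadjusted p under 0.05 the edgeR test held 213 genes (32.5%), 152 genes (22.2%) and 88 genes (11.2%) in the same order. For the astrocyte and neuron pair, 10 genes were called by edgeR with the offset, 76 by DESeq2 and 4 by diffSpliceDGE. A difference not called here may still exist, since the smallest adjusted p of that pair was 0.21 with 3 libraries a source.

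**Figure D1:**
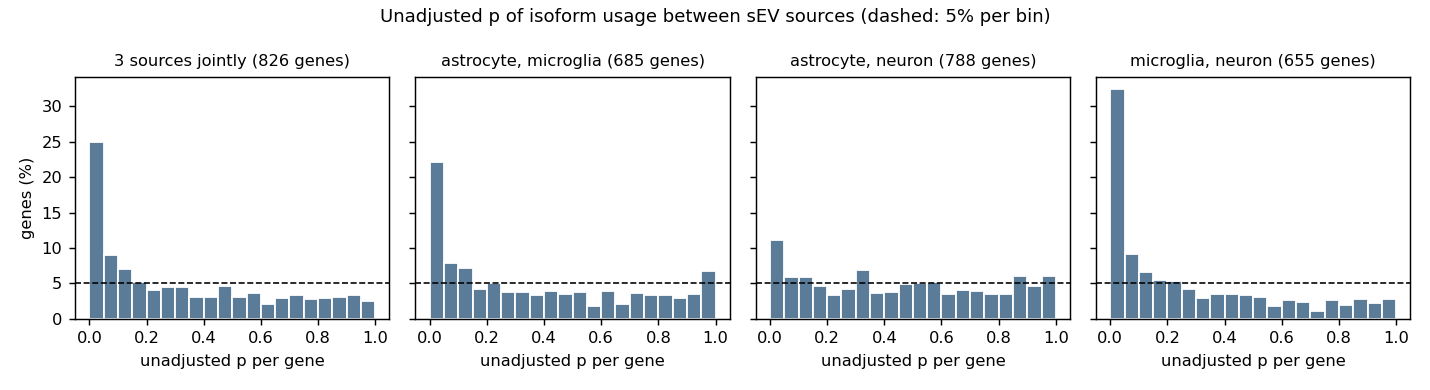
Share of tested genes (vertical axis, percent) in 20 equal bins of the unadjusted p per gene (horizontal axis) for the joint comparison and for each pair of sEV sources, by edgeR's quasi-likelihood test; the dashed line marks 5% per bin. The lowest bin holds 24.9% of genes jointly, 22.2% for astrocyte and microglia, 11.2% for astrocyte and neuron and 32.5% for microglia and neuron sEVs.

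The calls lay close to the threshold and rested on all libraries together. The 16 astrocyte and microglia calls fell to 0 when any 1 of the 9 libraries was left out. The 66 microglia and neuron calls fell to 0 without astrocyte sEV 3 or without neuron sEV 1, neuron sEV 2 or neuron sEV 3, to 5 without microglia sEV 1, to 39 without microglia sEV 3, and to 43 without astrocyte sEV 1 or microglia sEV 2. Without astrocyte sEV 2 there were 50. These fits kept the tested isoforms; with the low-count filter redone, both pairs fell to 0 whichever library was left out. They also fell to 0 without filterByExpr and with the replicate number as a block. With a minimum count of 20 in the filter, 33 of 342 and 63 of 330 genes were called by edgeR. As reported, these were 16 of 685 and 66 of 655. A library of the third source enters such a count because all sources share 1 estimate of the spread. For the genes described below, shares are therefore given by library where a difference is described.

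The sizes of the called differences are given as description only. Genes and isoforms were picked by p in these same libraries, which favours large differences and no overlap. For each pair, the isoform with the smallest p of a gene stands for that gene. Between microglia and neuron sEVs the called isoforms differed in mean share by a median of 41.5 percentage points, from 2.18 to 94.3, against a median of 21.9 over all 655 tested genes. Of the 66 genes, 54 differed by 20 points or more and 24 by 50 or more, and the isoform was higher in microglia sEVs in 34 and in neuron sEVs in 32, counted by the sign of the mean difference. Between astrocyte and microglia sEVs the called median was 36.9 points, from 6.62 to 94.3, against 15.4 over all 685. The 3 libraries of 1 source did not overlap those of the other in any called gene of either pair, against 361 of 655 genes (55.1%) and 300 of 685 genes (43.8%) among all tested. The isoform with the highest mean share differed between the sources in 31 of the 66 and in 8 of the 16 called genes, and in 31.1% and 24.5% of all genes tested for these pairs. Between astrocyte and neuron sEVs it differed in 203 of 788 genes (25.8%), with no overlap in 286 (36.3%) for the isoform of smallest p.

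Among the genes named first here, the 10 with the smallest joint p, none passed jointly (adjusted p = 0.0687 for each by edgeR). These genes were Tmod3, Myl6, Zfand6, Capzb, Ctnnbl1, Tpm1, Acat2, Tsc22d1, Ssna1 and Rpl7a. All 10 were among the 16 genes called between astrocyte and microglia sEVs, and all but Capzb were among the 66 called between microglia and neuron sEVs. Isoforms are given by their number in the table. The joint adjusted p of these 10 ran from 0.00181 to 0.0167 by edgeR with the offset, and over all alternatives it reached 1 for each gene.

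Tmod3 encodes tropomodulin 3, which caps the slow-growing ends of actin filaments. Its isoform 28714, a match to a known transcript with a different 5′ end, held 55.9%, 36.7% and 51.2% of Tmod3 reads in the 3 neuron sEV libraries. It held 6.76%, 6.06% and 7.04% in astrocyte sEVs, on only 5, 2 and 5 reads, where 2 is the smallest count above 0. In microglia sEVs it had 0 of 107, 274 and 387 reads, where 0 reads allow up to 2.80% in the shallowest library. The 3 sources did not overlap. The difference between neuron and microglia sEVs was 47.9 points (edgeR adjusted p = 0.0272), that between astrocyte and microglia sEVs 6.62 points (edgeR adjusted p = 0.045), and that between neuron and astrocyte sEVs 41.3 points (edgeR adjusted p = 0.21). The cells showed the same order, with 44.8 ± 5.54% (SD, n = 3) in neurons, 3.64 ± 3.29% in astrocytes and 0% in microglia.

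Myl6 encodes the essential light chain of nonmuscle and smooth muscle myosin, known for a pair of forms that differ by a short alternative exon. Isoform 2043 held 91.7%, 93% and 90.7% of Myl6 reads in microglia sEVs, 51.6%, 39.2% and 45.4% in neuron sEVs and 22.9%, 20.1% and 18.5% in astrocyte sEVs. Isoform 2042 was its counterpart, with 3.61%, 4.15% and 6.41% in microglia sEVs, 29.7%, 34.7% and 37.4% in neuron sEVs and 72.5%, 64.8% and 71.3% in astrocyte sEVs. The 3 sources did not overlap in either isoform, and the leading isoform was 2042 in astrocyte sEVs and 2043 in the others. The share of 2043 was higher in microglia sEVs than in astrocyte sEVs (edgeR adjusted p = 0.0338) and than in neuron sEVs (edgeR adjusted p = 0.0276), while neuron and astrocyte sEVs were not told apart by this test (edgeR adjusted p = 0.434). Isoform 20813, an unannotated combination of known junctions, had 7, 18 and 34 reads in astrocyte sEVs, 17, 11 and 20 in neuron sEVs and 0 in the 3 microglia sEV libraries. In cells isoform 2043 stood at 89.2 ± 3.36% in microglia, 67.2 ± 1.48% in neurons and 21.4 ± 3.73% in astrocytes.

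Capzb encodes the beta subunit of the protein that caps the fast-growing ends of actin filaments. Isoform 13131 held 66.9%, 81.6% and 77.8% of its reads in astrocyte sEVs, 4.49%, 6.97% and 2.18% in microglia sEVs and 18.8%, 25.7% and 27.3% in neuron sEVs. Isoform 13133 held most of the rest, with 95.5%, 93% and 95.9% in microglia sEVs. Astrocyte sEVs thus led with another isoform than microglia sEVs, without overlap (edgeR adjusted p = 0.0338), and the microglia and neuron pair did not pass (edgeR adjusted p = 0.0591). In astrocyte cells 13131 stood at 68.6 ± 8.06% and in microglia at 5.07 ± 2.34%.

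Tropomyosins wind along actin filaments and come in many versions from few genes. In Tpm1, isoform 18611, an unannotated combination of known junctions, held 36.2%, 56.5% and 62% of reads in astrocyte sEVs and 20.3%, 25% and 15.5% in neuron sEVs. It had 0 of 90, 82 and 131 reads in microglia sEVs, which allows up to 3.66%. Microglia sEVs were below astrocyte sEVs (edgeR adjusted p = 0.0338) and below neuron sEVs (edgeR adjusted p = 0.0272). In Tpm3, isoform 11673, also an unannotated combination of known junctions, held 81%, 69.2% and 87.3% of reads in astrocyte sEVs and 0% in all 3 microglia sEV libraries. There isoform 40432, with a different 5′ end, held 74.6%, 75.5% and 87%. The neuron sEV libraries were far apart in Tpm3, with isoform 11673 at 0%, 56.7% and 5.41%, although it stood at 86.0 ± 6.39% in neuron cells. Tpm3 was called between astrocyte and microglia sEVs (edgeR adjusted p = 0.045, through isoform 40433) and not between microglia and neuron sEVs (edgeR adjusted p = 0.15).

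A coat protein of vesicle traffic had an isoform that stood out in neuron sEVs. It is described as a called member of a list of cytoskeleton and trafficking genes known for neuron-type exons. Clta encodes clathrin light chain a, whose longer forms are typical of neurons. Isoform 25708 held 37.2%, 30.6% and 25.4% of its reads in neuron sEVs, 0%, 0% and 2.74% in astrocyte sEVs and 0% in each microglia sEV library. Neuron sEVs were higher than microglia sEVs (31.1 ± 5.92% against 0%; edgeR adjusted p = 0.0272), and the neuron libraries did not overlap with either other source. Against astrocyte sEVs the edgeR adjusted p was 0.224. In cells isoform 25708 stood at 26.3 ± 2.38% in neurons, 2.96 ± 5.13% in astrocytes and 0% in microglia.

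In the whole list of cytoskeleton and trafficking genes, 13 genes were tested, and 9 of them (69.2%) had an unadjusted joint p under 0.05 by edgeR, against 24.9% of all tested genes. The median of the largest difference in mean share between sources was 51.6 points in the list and 29.4 points over all tested genes. Adjusted over all genes, 3 of 11 were called between astrocyte and microglia sEVs (Myl6, Tpm1 and Tpm3) and 4 of 11 between microglia and neuron sEVs (Myl6, Tpm1 and Clta among them), where 2.34% and 10.1% of all tested genes were called. The list was chosen with earlier results of these data known.

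**Figure D2:**
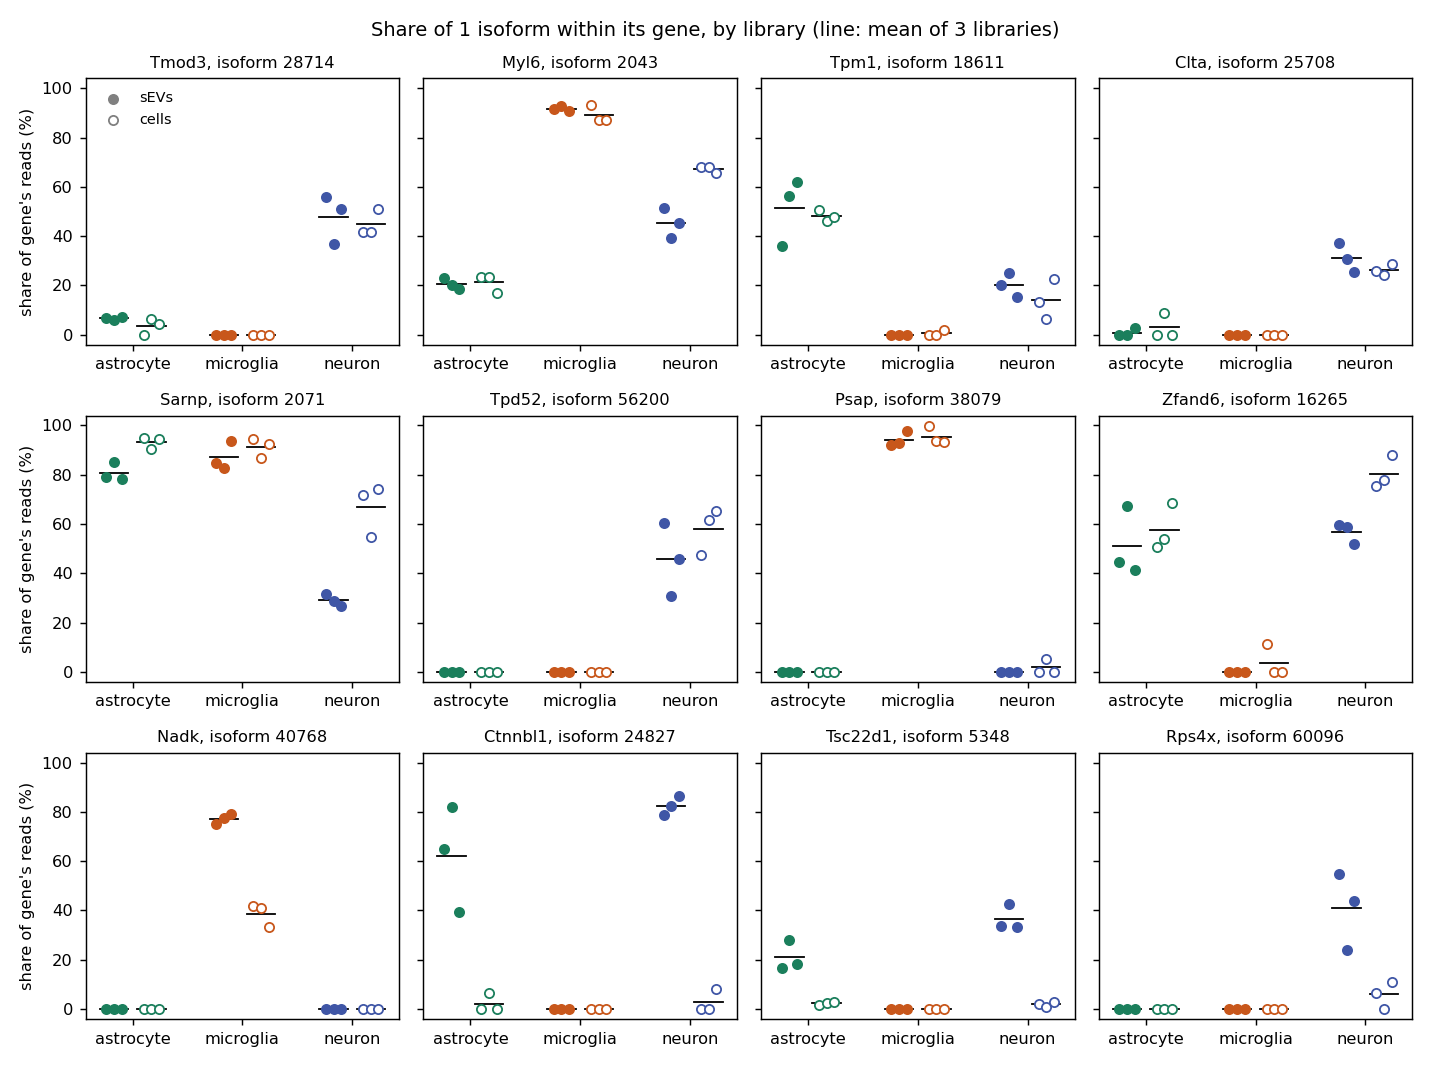
Share of 1 isoform among the reads of its gene (vertical axis, percent) in each library of astrocyte, microglia and neuron cultures (horizontal axis), for 12 genes; filled points are sEV libraries, open points cell libraries and black lines the mean of 3. Isoform 28714 of Tmod3 is at 36.7% to 55.9% in neuron sEVs and at 0% in microglia sEVs, and isoform 24827 of Ctnnbl1 is above 39% in all 6 astrocyte and neuron sEV libraries but has a mean of 2.22% and 2.70% in the cells of these types.

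Several isoforms were seen in only 1 sEV source. The genes of this and the next 3 paragraphs that are not among the 10 above were chosen after their values were seen, except for called list members. Psap encodes prosaposin, the precursor of lysosomal activator proteins, and belongs to a list of signalling and metabolic genes with known splice forms. Isoform 38079 held 92.2%, 93% and 97.6% of Psap reads in microglia sEVs and 0% in all 6 other sEV libraries, where 0 reads allow up to 3.95%. Isoform 1448 held 100%, 90.7% and 93.5% in neuron sEVs and 96.1%, 0% and 86.7% in astrocyte sEVs. Microglia sEVs differed from astrocyte sEVs (edgeR adjusted p = 0.045) and from neuron sEVs (edgeR adjusted p = 0.0272). Cells had the same pattern, with isoform 38079 at 95.5 ± 3.57% in microglia, 1.80 ± 3.11% in neurons and 0% in astrocytes. Of the 14 tested genes of its list, Psap was the only 1 called in either pair by edgeR, and 4 (28.6%) had an unadjusted joint p under 0.05, near the 24.9% of all tested genes. Over all genes 2.34% were called between astrocyte and microglia sEVs and 10.1% between microglia and neuron sEVs.

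Microglia sEVs also carried isoforms of Nadk, Lims1, Marcksl1 and H3f3b with 0 reads in the other sources. There 0 reads allow up to 12% for Nadk, 12% for Lims1, 2.83% for Marcksl1 and 1.14% for H3f3b. All were called between microglia and neuron sEVs, and none was among the 16 genes called between astrocyte and microglia sEVs. Nadk encodes the kinase that makes NADP. Its isoform 40768 had 27, 45 and 49 reads in microglia sEVs, 75%, 77.6% and 79% of the gene's reads (edgeR adjusted p = 0.0272 against neuron sEVs), and stood at 38.6 ± 4.59% in microglia cells. Lims1 encodes PINCH1, an adaptor at integrin adhesions, and its isoform 38067 with an unannotated exon held 64.7%, 48.2% and 51.4% (edgeR adjusted p = 0.0401 against neuron sEVs). Marcksl1 encodes an actin-regulating substrate of protein kinase C. Its isoform 40682, also with an unannotated exon, held 31.9%, 44.6% and 18% in microglia sEVs (edgeR adjusted p = 0.0415 against neuron sEVs) and 5.98 ± 3.08% in microglia cells. For H3f3b, a replacement histone H3.3 gene, isoform 38595 had 1702, 4654 and 4829 reads in microglia sEVs. The usual isoform of the other sources, 3497, held 98.5% or more in each of their 6 libraries and 38.7%, 3.04% and 2.59% in microglia sEVs (edgeR adjusted p = 0.0401 against neuron sEVs).

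Tpd52, Psme1, Psma7 and Psmb10 were called between neuron and microglia sEVs. Tpd52 encodes a coiled-coil protein of membrane traffic. Its isoform 56200, an unannotated combination of known junctions, had 52, 33 and 38 reads in neuron sEVs, 60.5%, 30.6% and 45.8% of the gene. It had 0 reads in the other 6 sEV libraries, which allows up to 2.05% (edgeR adjusted p = 0.0272 against microglia and 0.21 against astrocyte sEVs), and stood at 58.1 ± 9.30% in neuron cells. Psme1 encodes a subunit of the proteasome activator PA28. Isoform 69390 held 86.1%, 78.1% and 73.5% of Psme1 reads in neuron sEVs and 0% in the other sources (edgeR adjusted p = 0.0272 against microglia sEVs), but rested on 31, 25 and 36 reads, and its mean in neuron cells was 6.67%. Astrocyte sEVs had only 10 to 27 Psme1 reads per library, where a count of 0 allows up to 30%. Psma7, a subunit of the proteasome core, had isoform 56155 with an unannotated splice site at 12.9%, 12.5% and 11.6% in neuron sEVs, 3.17%, 0% and 0.957% in astrocyte sEVs and 0% in microglia sEVs (edgeR adjusted p = 0.0401). Psmb10, a catalytic subunit of the immunoproteasome, had its main isoform 17767 at 32.7%, 44.2% and 38.8% in neuron sEVs, 94.6%, 100% and 100% in astrocyte sEVs and 100%, 100% and 95.1% in microglia sEVs (edgeR adjusted p = 0.0406 against microglia sEVs).

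In other called genes microglia sEVs had 0 reads of an isoform that astrocyte and neuron sEVs shared. Zfand6 encodes a zinc finger protein that binds ubiquitin. Its isoform 16265 held 44.7%, 67.2% and 41.5% of reads in astrocyte sEVs, 59.7%, 58.6% and 52% in neuron sEVs and 0% in all microglia sEV libraries, where 0 reads allow up to 6.67%. Both differences from microglia sEVs passed (edgeR adjusted p = 0.0338 and 0.0272), and astrocyte and neuron libraries overlapped. Ssna1 encodes a microtubule-associated nuclear autoantigen. Its isoform 11051 held 42%, 52.1% and 41.2% in astrocyte sEVs, 35.7%, 42.4% and 40.9% in neuron sEVs and 0% in microglia sEVs (edgeR adjusted p = 0.045 and 0.0272). Acat2 encodes the cytosolic acetyl-CoA acetyltransferase. Its isoform 7385 had 0 reads in microglia sEVs, and its main isoform 7383 held 100% of reads in all 3 microglia sEV libraries, 87.8%, 85.9% and 88.4% in astrocyte sEVs and 65.7%, 66.1% and 68.4% in neuron sEVs, without overlap between any of the sources (edgeR adjusted p = 0.045 and 0.0272 against microglia sEVs, and 0.564 between the other sources). Microglia sEVs held few Acat2 and Ssna1 reads, with 41 to 179 per library for these genes.

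Of 40 tested genes of ribosomal proteins and translation, 13 (32.5%) had an unadjusted joint p under 0.05 by edgeR, against 24.9% of all tested. Rpl7a, Rpl13a and Rpl37a were called between astrocyte and microglia sEVs, and these together with Rpl5, Rpl37, Rps4x and Rps19 between microglia and neuron sEVs, or 3 and 7 of 38 tested for each pair, where 2.34% and 10.1% of all tested genes were called. Ribosomal protein genes have many near-identical processed copies in the genome, so the assignment of their reads is uncertain. In Rpl7a, of the large subunit, isoform 11140 with a retained intron held 47.9%, 35.2% and 46.2% in neuron sEVs, 25.1%, 11.5% and 32.2% in astrocyte sEVs and 0% in microglia sEVs, without overlap (edgeR adjusted p = 0.0272 for neuron and 0.045 for astrocyte against microglia sEVs). It stood at 29.9 ± 6.97% in neuron cells. In Rps4x, of the small subunit, isoform 60096 with part of an intron retained had 440, 84 and 300 reads in neuron sEVs (54.6%, 24.1% and 43.7%) and 0 reads in the other 6 sEV libraries (edgeR adjusted p = 0.0401 against microglia sEVs). Its mean in neuron cells was 5.93%. In Rpl5, which binds 5S ribosomal RNA, isoform 13950 held 78.2%, 51.4% and 82.5% in neuron sEVs, 0%, 0% and 1.08% in astrocyte sEVs and 0% in microglia sEVs (edgeR adjusted p = 0.0272). The 5′ end variant 13949 of Rpl5 was at 0 reads in astrocyte sEV 2 and microglia sEV 2 and above 82% in the other libraries of these sources. In Rps19 the difference was small, with isoform 15701 at 95.1%, 94.2% and 96% in neuron sEVs, 94.8%, 90.9% and 94.6% in astrocyte sEVs and 100% in each microglia sEV library (edgeR adjusted p = 0.0401).

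Among 18 tested genes of the nuclear-encoded respiratory chain, Sdhb and Cyc1 were called between microglia and neuron sEVs, and 5 (27.8%) had an unadjusted joint p under 0.05 by edgeR. Over all tested genes these shares were 10.1% and 24.9%, so the list's counts are near the background. Sdhb encodes the iron-sulphur subunit of succinate dehydrogenase, and its isoform 34700, an unannotated combination of known splice sites, held 5.77%, 5.46% and 4.66% in neuron sEVs and 0% in the other sEVs (edgeR adjusted p = 0.042, through the main isoform 13153). Cyc1 encodes cytochrome c1, and its main isoform 6176 held 83.4%, 89.8% and 91.2% in neuron sEVs, 97.5%, 91.3% and 97.4% in astrocyte sEVs and 100% in each microglia sEV library (edgeR adjusted p = 0.0401). Of 3 tested surface and adhesion genes, Gpm6a, a neuronal membrane glycoprotein gene, was called between microglia and neuron sEVs (edgeR adjusted p = 0.0437). Its isoform 17234 held 79.2%, 43.4% and 43.8% in neuron sEVs, 24.1%, 42.1% and 27.7% in astrocyte sEVs and 100% in microglia sEV 2 and microglia sEV 3, and microglia sEV 1 had 0 Gpm6a reads.

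Regulators of splicing and the machinery of the vesicles had no called gene. Over all tested genes 2.34% were called between astrocyte and microglia sEVs and 10.1% between microglia and neuron sEVs. In lists this short, no call is near these shares. Of 20 tested splicing regulators, 5 (25%) had an unadjusted joint p under 0.05, the share of all tested genes being 24.9%. Hnrnpa2b1, an RNA-binding protein with a role in splicing and RNA transport, had isoform 26891 at 16.2%, 13.7% and 16.7% in microglia sEVs and at 0% in the other 6 sEV libraries, without passing (edgeR adjusted p = 0.14 jointly). Neuron sEVs had only 49, 14 and 35 Hnrnpa2b1 reads, where a count of 0 allows up to 21.4%, above the microglia shares. Celf2, a CUG-binding splicing regulator, had isoform 40004 at 88.7%, 45.1% and 26.1% in microglia sEVs and 0% elsewhere (edgeR adjusted p = 0.133 jointly). Of 7 tested genes of extracellular vesicles, 0 had an unadjusted joint p under 0.05 by edgeR, against 24.9% of all tested genes. Sdcbp, or syntenin, a scaffold of exosome formation, had the same leading isoform 12217 in all sources, at 90.9 ± 4.56% in astrocyte, 90.4 ± 1.22% in microglia and 91.9 ± 11.6% in neuron sEVs (n = 3 each). Of the markers of cell types, 0 of 20 neuron markers were members, 5 microglia markers were members but had reads enough in fewer than 2 sources, and 3 astrocyte markers were tested without a call. Gfap, the astrocyte intermediate filament, had isoform 3309 at 67.2% to 89.8% in astrocyte sEVs, 100% in microglia sEVs and 89.2% to 95% in neuron sEVs (edgeR adjusted p = 0.202 jointly).

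The isoforms called in sEVs were then read in the cell libraries, which took no part in choosing them. Genes whose difference was exactly 0 in sEVs or in cells were left out of the counts of direction, which raises the shares over all tested genes. Of 63 genes called between microglia and neuron sEVs with a share in both cell types, 62 differed in the same direction in cells (98.4%), against 419 of 518 among all tested genes (80.9%). Sdhb was the exception, with a difference of 5.66 points in sEVs and close to 0 in cells. Of the 63 genes tested in cells, 42 were called there by edgeR, where 32.4% of all tested genes were called between microglia and neurons. All 15 measurable genes called between astrocyte and microglia sEVs had the same direction in cells, against 404 of 537 among all tested (75.2%), and 13 were called there by edgeR (19.3% of all tested genes). Over the 3 cell types jointly, 158 of 756 genes (20.9%) were called in cells by edgeR, and between astrocytes and neurons 42 of 728 (5.77%).

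**Figure D3:**
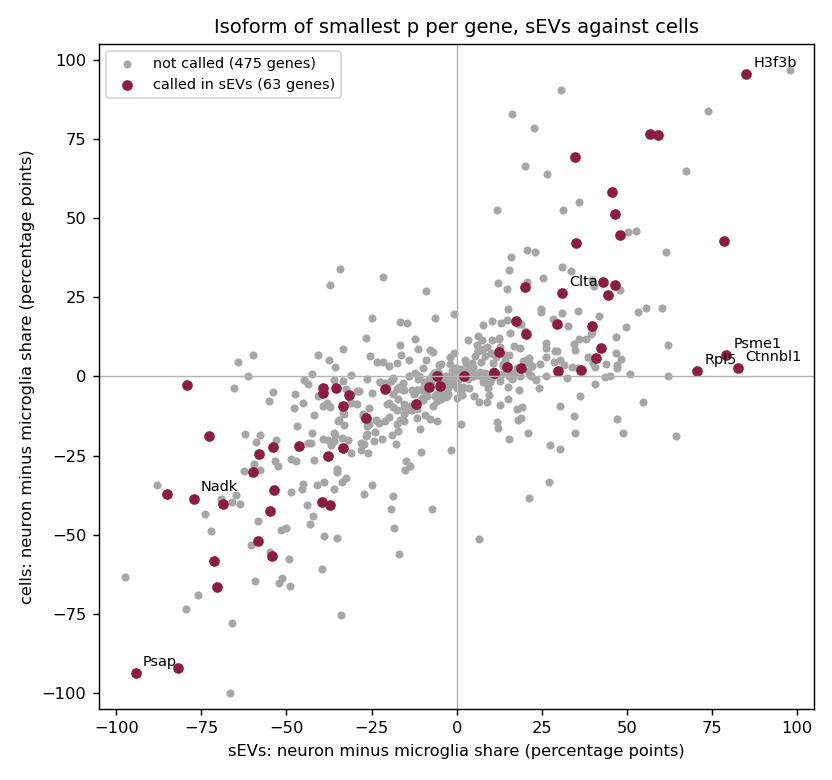
Difference in mean share, neuron minus microglia in percentage points, of the isoform with the smallest p of each gene in sEVs (horizontal axis) and of the same isoform in cells (vertical axis); each point is a gene, red for the 63 genes called in sEVs and grey for the 475 not called. Of the red points, 62 have the same sign on both axes, and Ctnnbl1, Psme1 and Rpl5 lie more than 70 points from 0 in sEVs and under 7 points from 0 in cells.

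Some called genes had an isoform that was common in sEVs and rare in all cells. These were chosen after their values were seen, and the difference between sEVs and cells was not tested. Ctnnbl1 encodes a spliceosome-associated protein. Its isoform 24827, a fragment of a known transcript from the 5′ side, held 64.9%, 81.8% and 39.2% in astrocyte sEVs, 78.8%, 82.4% and 86.4% in neuron sEVs and 0% in microglia sEVs (edgeR adjusted p = 0.045 and 0.0272 against microglia sEVs). In cells it stood at 2.22 ± 3.85%, 2.70 ± 4.68% and 0% in astrocytes, neurons and microglia. Tsc22d1 encodes a leucine zipper regulator of transcription. Its isoform 5348 with a different 5′ end held 16.6%, 27.9% and 18.4% in astrocyte sEVs, 33.6%, 42.5% and 33.4% in neuron sEVs and 0% in microglia sEVs (edgeR adjusted p = 0.045 and 0.0272), and 2.28 ± 0.671%, 1.92 ± 0.893% and 0% in the same order in cells. The neuron sEV isoforms of Psme1, Rpl5 and Rps4x described above had means of 6.67%, 1.65% and 5.93% in neuron cells. sEVs and cells were sequenced in separate pools, per the labels, so fraction and pool cannot be told apart in these values.

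Between neuron and astrocyte sEVs, where nothing passed, the 10 genes called by edgeR with the gene total as offset included Tpd52, Sarnp, Myl6, Psmb10, Tpm3, Tmod3 and Nubp2. Sarnp encodes a nuclear RNA-binding protein of mRNA export. Its isoform 2071 held 31.8%, 28.8% and 26.7% in neuron sEVs, 78.9%, 85.2% and 78.3% in astrocyte sEVs and 84.8%, 82.9% and 93.8% in microglia sEVs. Neuron sEVs thus did not overlap with either source, with an edgeR adjusted p of 0.0273 against microglia sEVs and 0.21 against astrocyte sEVs in the same test as all values above. Nubp2 encodes an iron-sulphur cluster assembly factor. Its isoform 7529 held 46.3%, 46.8% and 46.2% in neuron sEVs, 16.8%, 20% and 9.46% in astrocyte sEVs and 0% in microglia sEVs (edgeR adjusted p = 0.0272 for neuron against microglia and 0.508 for neuron against astrocyte sEVs).

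The sources also differed in how many isoforms a gene's reads were spread over. This was measured as the mean chance that 2 reads of a gene come from different isoforms. Its expected value does not depend on depth apart from the single reads the table leaves out. The genes were the 503 tested genes with 10 or more reads in every sEV library. Tested genes had been kept for having 2 or more isoforms in these same libraries, and an isoform could pass the filter through a single source. The permutation p below takes no account of that choice, and its part in the values was not tested. The measure was 31.9%, 34% and 34.7% in astrocyte sEVs, 24.6%, 28.6% and 28.8% in microglia sEVs and 39.2%, 39.6% and 38.6% in neuron sEVs. The 3 sources did not overlap (33.5 ± 1.44%, 27.3 ± 2.34% and 39.1 ± 0.496%; n = 3 each; exact two-sided permutation test over 3 groups, p = 0.00357, the smallest this design allows; adjusted p = 0.0101 over 17 such measures). For a single pair, an exact test with 3 against 3 libraries cannot go below 0.1. By gene, microglia sEVs had the lowest value in 292 of 503 genes and neuron sEVs the highest in 269. In genes with 50 or more reads in every library, 184 in number, the means were 27.2%, 21.1% and 33.0%. In 414 genes that could also be read in all cell libraries, the cells kept the same order, with 29.4% to 29.7% in astrocytes, 24.2% to 25.9% in microglia and 33% to 34.6% in neurons.

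Some structural classes of the reads differed between the sources as well. Full-splice matches, whose junctions all match a known transcript, were 77.5 ± 3.27% of reads in neuron, 81.7 ± 3.29% in astrocyte and 86.3 ± 2.8% in microglia sEVs and did not pass (n = 3 each; exact permutation p = 0.0429, adjusted p = 0.0607). Isoforms with unannotated splice sites did not pass either (6.66 ± 3.82%, 6.24 ± 2.69% and 3.87 ± 0.701%; n = 3 each; exact permutation p = 0.379, unchanged by adjustment), with astrocyte sEV 1 at 9.31% and neuron sEV 1 at 10.9%. Retained introns were 2.64%, 2.59% and 2.44% of all reads in neuron sEVs, 2.01%, 1.94% and 1.4% in astrocyte sEVs and 1.19%, 1.33% and 1.33% in microglia sEVs (exact permutation p = 0.00357, adjusted p = 0.0101). Unannotated combinations of known splice sites were 4.21 ± 0.198% in neuron, 3.54 ± 0.0719% in astrocyte and 2.89 ± 0.398% in microglia sEVs (n = 3 each; exact permutation p = 0.00357, adjusted p = 0.0101). Fragments from the 3′ side of known transcripts were 9.94 ± 0.387%, 7.14 ± 1.04% and 4.67 ± 1.21% in the same order (n = 3 each; exact permutation p = 0.00714, adjusted p = 0.0135). With fragments and other classes left out, 21 of 575 genes were called by edgeR between astrocyte and microglia sEVs. Between microglia and neuron sEVs 74 of 550 were called. Fragments from the 5′ side went the other way, with 0.897 ± 0.0386% in microglia sEVs, 0.568 ± 0.0866% in astrocyte sEVs and 0.466 ± 0.118% in neuron sEVs (n = 3 each; exact permutation p = 0.0143, adjusted p = 0.0221). Within the 826 tested genes the 3′ fragments did not differ in this order (3%, 4.38% and 4.58% in astrocyte, microglia and neuron sEVs; exact permutation p = 0.268), and the diversity measure without fragments and other classes kept its order at 29.6%, 23.2% and 33.9% in 438 genes. Of the 66 isoforms that carried a call between microglia and neuron sEVs, 51 matched a known transcript at every junction (77.3%), 4 were fragments or other partial matches, 7 were unannotated combinations of known sites and 4 had unannotated sites, against 73.6% full matches among all 655 tested genes.

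**Figure D4:**
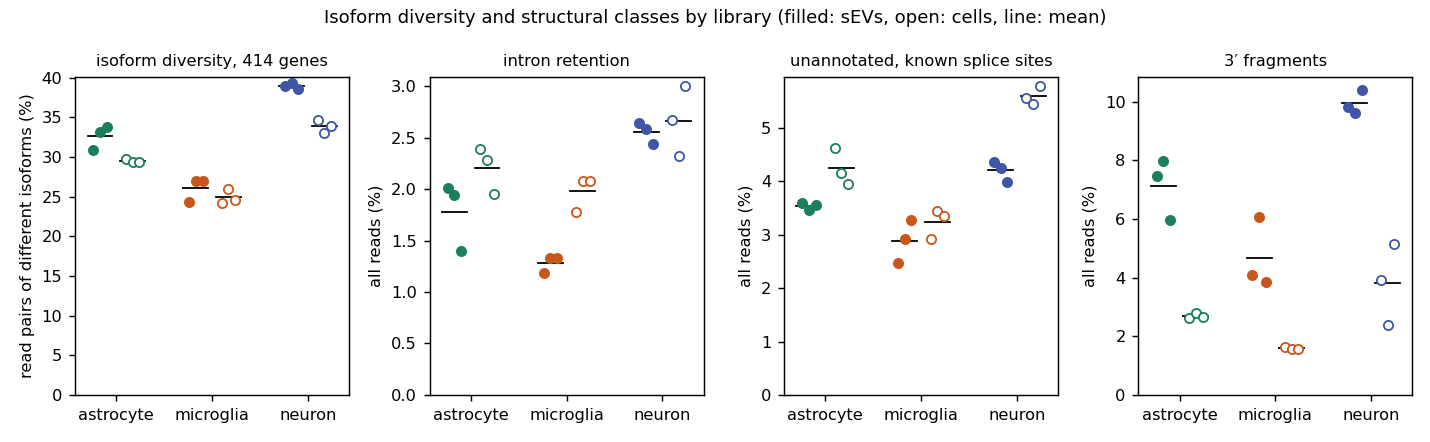
Mean chance that 2 reads of a gene come from different isoforms in 414 genes, and percent of all reads with a retained intron, with an unannotated combination of known splice sites and from 3′ fragments (vertical axes, percent), in each library of the 3 cultures (horizontal axes); filled points are sEV libraries, open points cell libraries and lines the mean of 3. In sEVs neuron libraries are highest and microglia libraries lowest in the first panel, and retained introns run from 2.44% to 2.64% in neuron sEVs against 1.19% to 1.33% in microglia sEVs.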

How the data were processed

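The authors deposited unnormalized counts of reads, 1 row per isoform and 1 column per library. Reads were mapped with minimap2 to GRCm39, per the submitters' processing notes. Which caller and annotation defined the isoforms is not stated here. The smallest count above 0 was 2, so a 0 can hide a single read. A count of 0 was taken to allow 3 reads per library. Reads carry no molecular identifiers, so such limits cover counting error only. cDNA was reamplified for 10 cycles, and the sEV libraries formed 1 of 2 sequencing pools, per the labels.

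Isoforms were kept by filterByExpr (minimum count 10, by source) in the 9 sEV libraries. For each isoform, its reads and all other reads of its gene were fitted in edgeR 4.0.16 (R 4.3.3) with a term per library, in 1 fit of the 3 sources. Quasi-likelihood F tests were combined per gene by Simes' method and adjusted by Benjamini-Hochberg at 0.05. The common dispersion was 0.957. The same test was run in the 9 cell libraries. Of 826 tested symbols, 823 were found in RefSeq (assembly GRCm38.p6), and no coordinates were used.

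The members and gene lists were chosen with earlier results of these data known. The rule for names took the 10 genes of smallest joint p because no gene was called, with predicted genes passed over, and called list members with up to 4 examples per list. A called list member that this rule names is not reported here. The test was tested on simulated data with changes of 4-fold or 16-fold in odds in microglia sEVs. At the real spread of each isoform it recovered 0% of either size after adjustment, jointly and in both microglia pairs. With the lower-quartile spread for all isoforms it recovered 17% and 76% jointly. A gene that was not called may therefore still differ. Replicate numbers were checked for pairing. Deviations of same-numbered libraries correlated between -0.0356 and 0.0514 (median 0.0176), and those of other libraries between -0.0696 and 0.0546 (median -0.00892). Such correlations over all isoforms cannot show whether libraries of 1 number share a batch in some genes, which was not tested. Replicates differed beyond sampling noise in every pair. Alternatives were other tests (DESeq2 1.42.0, a gene-total offset, diffSpliceDGE), filters, denominators, isoform classes and left-out libraries.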

Additional observations from a re-analysis of the deposited data

How the results depend on the processing

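The number of called genes depended strongly on the setting, and its cause was not tested. Counts are given for the joint test, then astrocyte against microglia, astrocyte against neuron and microglia against neuron sEVs, by edgeR unless another tool is named. They were 0, 16, 0 and 66 as reported, of 826, 685, 788 and 655 tested genes. With the gene total as offset they were 87, 59, 10 and 122. DESeq2's likelihood ratio test gave 253, 148, 76 and 237, and diffSpliceDGE 31, 22, 4 and 63. With all 18 libraries in the fit they were 161, 98, 17 and 175. A minimum count of 20 gave 43, 33, 0 and 63, of 397, 342, 383 and 330 tested. Genes with 10 or more reads in all 9 libraries, 503 in number, gave 30, 28, 0 and 75. Without filterByExpr all were 0, over 3820, 2547, 3305 and 2268 genes. With only the tested isoforms in the denominator there were 0, 8, 0 and 44. Without fragments there were 0, 21, 0 and 74, of 705, 575, 668 and 550 tested. With the replicate number as a block all were 0, with a smallest adjusted p of 0.266 for astrocyte against microglia and 0.169 for microglia against neuron sEVs. Without astrocyte sEV 1 and neuron sEV 1 together, chosen after seeing the data, all were 0.

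Leaving out 1 library with the tested isoforms kept gave 0 calls for the joint test and both astrocyte pairs, and 0 to 50 for microglia against neuron sEVs. With the filter redone, chosen after seeing the data, all counts were 0. The genes tested were then 1245 to 1421 jointly, and 839 to 1063, 1100 to 1332 and 801 to 1028 for the pairs in the order above. Genes whose leading isoform differed between sources were 319 of 826 as reported and 1280 of 3820 without filterByExpr. At a minimum count of 20 they were 172 of 397, and with 10 reads in all libraries 171 of 503. With 1 library left out they were 310 to 328 of 826. With the filter redone they were 491 to 573, over 1245 to 1421 genes. These counts moved with the number of genes tested. Full-splice matches, neuron minus microglia sEVs, differed by -8.8 points over all reads (exact permutation p = 0.0429 over 3 groups), -9.52 in the tested genes (exact permutation p = 0.175), -6.92 without the 2 libraries above (exact permutation p = 0.0762), and -10.3 to -6.92 with 1 library left out. Incomplete matches differed by 5.12 points over all reads (exact permutation p = 0.00714), and by 4.69 to 5.83 with 1 library left out. In the tested genes they differed by 0.212 points (exact permutation p = 0.218). No mean difference of an isoform that carried a call changed sign under any alternative that could be computed for it. For most alternatives this was fixed in advance and is no support for the calls. Other tests use the same shares, and without overlap between sources a left-out library cannot change the sign. The filter leaves out isoforms that reach about 10 reads in too few libraries. A kept isoform can still have fewer in 1 source, such as 5, 2 and 5 reads of Tmod3 isoform 28714 in astrocyte sEVs. Depth limits such shares.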
